A study of Homo sapiens with 5 samples.

Results

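Peaks were described at 8 human genes that build or run the contractile apparatus of striated muscle: the actins ACTA1 and ACTC1, the giant filament proteins NEB and TTN, the intermediate filament protein DES, the creatine kinase CKM, the calcium channel RYR1 and the membrane protein CAV3. Members were all entries of the deposited peak lists that overlapped, by at least 1 bp, a fixed hg19 window of 100 to 380 kb around each gene, 1550 kb in all. The windows held 66 of 46408 regions of histone H3 acetylated at lysine 27 (H3K27ac) in RH18, 53 of 43159 H3K27ac regions in RD, and 21 of 11136 MYF5 peaks in RH18. RH18 and RD are established cell lines of fusion-negative rhabdomyosarcoma, a tumour with skeletal muscle features, grown in medium with 10% serum and given no treatment that the labels name. H3K27ac was mapped in both lines by chromatin immunoprecipitation and sequencing, and MYF5 in RH18. The 2 input samples were not analysed here. Each group was 1 library of 1 line, so no value below has a replicate check, no difference was tested, and intervals cover counting error only.

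H3K27ac is laid down at active promoters and enhancers and is removed where they fall silent. MYF5 is a basic helix-loop-helix factor of muscle progenitors, which pairs with E proteins on the E-box, the 6 letters CANNTG. Most of the genes described here, though not all, are switched on when myoblasts leave the cell cycle and differentiate. Rhabdomyosarcoma cells are known to carry out that step only in part. Desmin is used as a diagnostic stain of this tumour.

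The core promoters of 4 of the genes are shown, as examples of windows with MYF5 in or beside acetylated regions (ACTC1 and CAV3) or far from them (CKM and NEB). The ACTC1 window held the MYF5 peak of highest fold, inside regions of both lines. Of its 4 MYF5 summits, 2 lay inside regions of both lines and 1 in regions of neither. The CAV3 window held 1 MYF5 summit inside regions of both lines and 1 in regions of neither. The summits in neither stood 7 bp (ACTC1) and 3 bp (CAV3) from RH18 acetylation. Each promoter sequence runs 5′ to 3′ from 250 bases before the RefSeq start site to 50 bases after it, in GRCh38.p14, and capitals mark the E-boxes. The peaks are in hg19, so these sequences were not placed against them. For ACTC1 the entry farthest upstream of 3 is given (chr15:34795500-34795799, minus strand), and the others are CAV3 (chr3:8733552-8733851, plus strand), CKM (chr19:45322826-45323125, minus strand) and NEB (chr2:151734427-151734726, minus strand).
ACTC1: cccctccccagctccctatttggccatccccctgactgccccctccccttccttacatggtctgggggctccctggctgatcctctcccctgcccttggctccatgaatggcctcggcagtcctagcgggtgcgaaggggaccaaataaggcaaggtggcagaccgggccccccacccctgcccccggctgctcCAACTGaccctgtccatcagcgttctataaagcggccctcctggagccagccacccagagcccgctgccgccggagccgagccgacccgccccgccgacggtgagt
CAV3: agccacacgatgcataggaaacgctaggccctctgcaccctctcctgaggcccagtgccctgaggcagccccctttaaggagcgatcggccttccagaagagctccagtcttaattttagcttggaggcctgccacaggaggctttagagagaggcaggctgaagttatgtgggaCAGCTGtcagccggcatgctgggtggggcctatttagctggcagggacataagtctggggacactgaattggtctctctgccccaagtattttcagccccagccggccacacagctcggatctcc
CKM: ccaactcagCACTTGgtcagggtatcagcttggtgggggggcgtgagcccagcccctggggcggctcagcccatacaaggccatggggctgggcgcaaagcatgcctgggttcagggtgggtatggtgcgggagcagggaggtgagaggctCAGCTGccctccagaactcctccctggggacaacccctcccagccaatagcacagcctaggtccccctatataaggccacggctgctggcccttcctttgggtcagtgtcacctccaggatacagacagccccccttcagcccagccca
NEB: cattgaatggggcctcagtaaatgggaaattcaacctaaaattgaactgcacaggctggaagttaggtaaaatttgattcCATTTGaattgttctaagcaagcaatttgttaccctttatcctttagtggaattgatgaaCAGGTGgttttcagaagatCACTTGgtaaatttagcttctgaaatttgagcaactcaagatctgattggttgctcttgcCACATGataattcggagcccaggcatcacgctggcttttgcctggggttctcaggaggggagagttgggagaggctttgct

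Of the 8 genes, 7 matched the RefSeq promoter table, with 9 entries, and DES did not. On either strand, the E-box CANNTG was found in 8 of the 9 entries, those of 6 genes (all but RYR1), beside 68.7% of all 35116 promoters of the table. The E-box core CAGCTG was found in 3 of the 9 entries, for ACTC1 (in another of its entries), CAV3 and CKM, beside 17.9% of all promoters. CAGGTG was found in 3 of the 9, for ACTC1 (not in its printed entry), NEB and TTN, beside 20.6%. Both are also E-boxes in the wider sense. The CArG box, bound by serum response factor, was found in 2 of the 9, for ACTA1 and ACTC1 (1.29% of all promoters). The MEF2 box was found in 2 of the 9, for CAV3 and TTN (1.86%). The TEAD motif CATTCC was found in 3 of the 9, for ACTA1, ACTC1 (not in its printed entry) and TTN (14.03%). In the printed ACTC1 promoter the single E-box started 56 bases before the start site and the CArG box 109 before it. The NEB promoter held 4 E-boxes, the most of the 9 entries.

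Acetylation was unevenly spread over the 8 genes. The DES and ACTC1 windows together held 36 of the 66 RH18 regions (54.5%, exact Clopper-Pearson 95% interval 41.8 to 66.9%), 31 of the 53 RD regions (58.5%, 44.1 to 71.9%) and 12 of the 21 MYF5 peaks (57.1%, 34.02 to 78.2%). These windows, of 110 kb each among 1550 kb, were pooled here as the highest of each list. The intervals are therefore no test of unevenness, and they treat neighbouring peaks as separate. The order of the windows by RH18 regions was DES with 19, ACTC1 with 17, CAV3 with 10, RYR1 with 7, ACTA1 with 5, CKM and TTN with 4 each, and NEB with 0. In RD the order was DES with 18, ACTC1 with 13, RYR1 with 8, TTN with 6, ACTA1 with 5, CAV3 with 2, CKM with 1 and NEB with 0. The windows differ in length, and the 380 kb of TTN held fewer regions in either line than the 110 kb of DES. H3K27ac regions covered 23.8% of the DES window in RH18 and 11.7% in RD, against 0.595% and 0.489% of the TTN window in those lines. No hg19 annotation was used here, so no region was assigned to a promoter, an intron or a neighbouring gene of its window. Which gene any region serves was not tested.

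**Figure D1:**
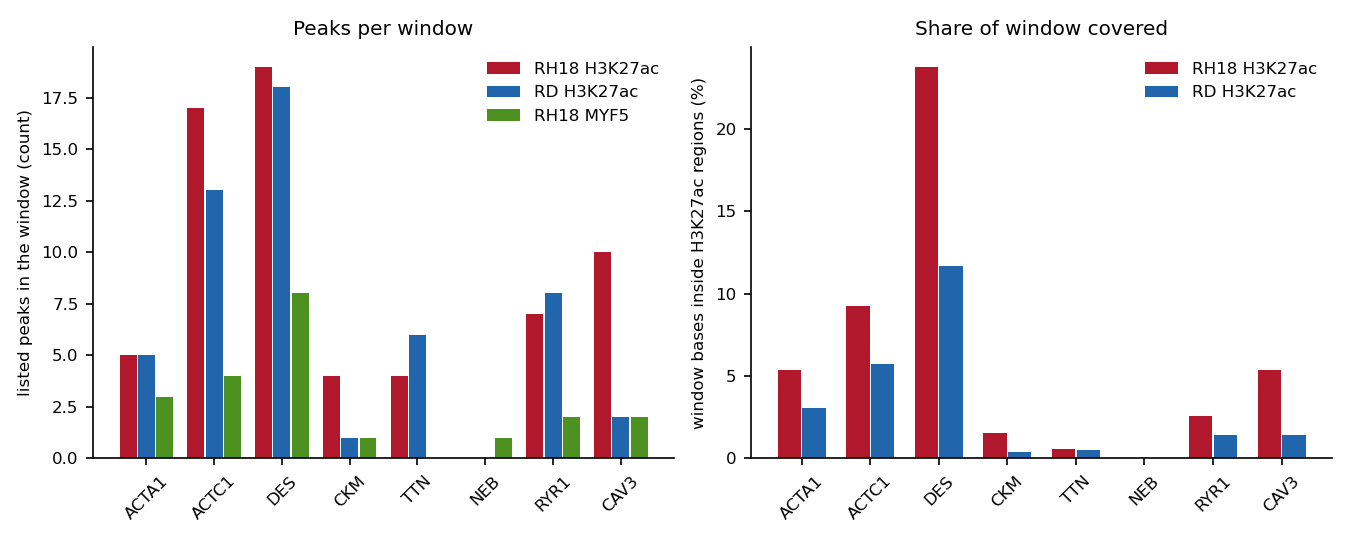
Left, number of listed peaks (count) in each of the 8 windows in RH18 H3K27ac (red), RD H3K27ac (blue) and RH18 MYF5 (green); right, percent of window bases inside H3K27ac regions of RH18 (red) and RD (blue). DES and ACTC1 stand highest in all lists, and NEB has a single MYF5 peak and no H3K27ac region.

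Alpha cardiac actin (ACTC1) is the sarcomeric actin of heart and of early skeletal muscle. Its window (chromosome 15, 35030000 to 35140000) carried a dense cluster of acetylated regions in both lines. The highest RH18 region (35091351 to 35092109) had a fold enrichment of 93.4 over local background and rested on 259 recovered tags (exact Poisson 95% interval 228 to 293). The highest RD region (35091226 to 35092282) covered the same place, with a fold of 33.1 on 239 tags (210 to 271). Their summits lay 33 bp apart, and these were among the strongest regions of each list, in the top 0.446% by fold in RH18 and the top 0.482% in RD. A fold is the authors' value and is not on the same scale in the lines, so where regions of both lines are set side by side, the rank within each list is given too.

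The ACTC1 site of highest acetylation also held the MYF5 peak of highest fold in the 8 windows (35091554 to 35092001, fold 19.96, 60 tags, 45.79 to 77.2). A MYF5 peak at 35088019 to 35088343 (fold 11.5, 34 tags) likewise lay inside regions of both lines. The peak at 35085316 to 35085533 (fold 8.93, 26 tags) had its summit inside an RH18 region and stood 1 bp outside RD acetylation. The peak at 35081450 to 35081922 (fold 13.5, 40 tags) stood 7 bp outside an RH18 region with a fold of 19.4, while RD acetylation was 3845 bp away. Around these sites, 10 of 17 RH18 regions overlapped RD regions and 11 of 13 RD regions overlapped RH18 regions. The highest RH18 region without an RD overlap was at 35084201 to 35084894 (fold 38.8, 107 tags), and the highest RD region without an RH18 overlap was at 35095592 to 35095872 (fold 12.3, 70 tags). Joined across gaps of up to 12.5 kb, the cluster formed a domain of 24.0 kb in RH18 that ranked 334 of 18842 by fold times width, and of 17.96 kb in RD that ranked 304 of 16671.

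Alpha skeletal actin (ACTA1) is the main thin filament protein of adult skeletal muscle. Its window (chromosome 1, 229520000 to 229620000) had 5 regions in each line, in 2 groups that both lines shared and 1 lone RH18 region, and none reached the top 10% of its list by fold. The highest in RH18 (229547235 to 229548014) had a fold of 40.3 on 144 tags (121 to 170), in the top 11.6% of its list, and overlapped an RD region of fold 6.15 on 64 tags, in the top 73.7%. The highest in RD (229545704 to 229546951) had a fold of 15.5 on 110 tags (90.4 to 133), in the top 12.4%, and lay within a 3480 bp RH18 region of fold 28.1, in the top 21.8%, that overlapped 3 RD regions. All 5 RD regions overlapped RH18 regions, and 2 of the 5 RH18 regions had no RD overlap, the higher of them at 229569952 to 229570514 (fold 14.7, 56 tags).

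All 3 MYF5 summits of the ACTA1 window lay inside RH18 regions, and 1 of them inside an RD region. The peak of highest fold (229570459 to 229570756, fold 12.6, 51 tags) stood 98 bp from RD acetylation. A further one, at 229544540 to 229544808 (fold 10.5, 39 tags), stood 23 bp from it, between RD regions on either side. The peak inside regions of both lines (229546580 to 229546799, fold 8.26) rested on 24 tags (15.4 to 35.7), the fewest recovered for the 21 MYF5 peaks. That count had more than 1 whole-number solution, which the interval and the order do not cover.

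Nebulin (NEB) spans the thin filament and sets its length. Its window (chromosome 2, 152290000 to 152640000) had no listed H3K27ac region in either line over 350 kb. A single MYF5 peak lay there (152590399 to 152590570, fold 12.2, 36 tags, 25.2 to 49.8), with its summit 93581 bp from the nearest RH18 region and 52161 bp from the nearest RD region. Just outside, 22.7 kb before the start of the window, stood an RH18 region of fold 46.6 on 192 tags (top 8.29% of its list) and an RD region of fold 4.86 on 121 tags (top 89.5%), with a MYF5 peak of fold 8.13. The RD region nearest to the window was 2.67 kb after its end (fold 6.77, 37 tags). A missing region means that no peak passed the authors' threshold, which no source used here states. In RH18 the list ended at a −log10 p-value of 7.09, and in RD at 5.00.

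Titin (TTN), the molecular spring that ties the Z-disc to the M-line, had the reverse pattern, with acetylated regions and no MYF5 peak in its window (chromosome 2, 179340000 to 179720000). The nearest MYF5 peak outside lay 4.07 kb after the end of the window (fold 12.2, 36 tags), and another 23.7 kb before its start, beside an RH18 region of fold 38.88 (top 12.5% of its list) and an RD region of fold 9.92 (top 33.99%). Near the start of the window, 3 RH18 and 3 RD regions lay between 179342900 and 179345831. The highest RH18 region (179345112 to 179345831, fold 21.5, 76 tags, 59.9 to 95.1) was among them, in the top 31.4% of its list, and overlapped an RD region of fold 4.08 on 51 tags, in the top 95.3%. The highest RD region (179387968 to 179388303, fold 15.1, 87 tags, 69.7 to 107) lay elsewhere, and its summit was 42268 bp from any RH18 region. TTN was the window with the most RD regions that had no RH18 overlap, 3 of 6. They included one at 179671919 to 179672175 (fold 6.77, 46 tags, 33.7 to 61.4), whose summit was 46892 bp from the nearest RH18 region. Of the 4 RH18 regions 2 overlapped no RD region, the higher at 179344752 to 179345029 (fold 12.2, 49 tags).

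Desmin (DES) forms the intermediate filaments that tie neighbouring myofibrils together. Its window (chromosome 2, 220230000 to 220340000) was the most acetylated of the 8 in both lines. The highest RH18 region (220315733 to 220319178, 3446 bp) had a fold of 107 on 298 tags (265 to 334) and stood in the top 0.142% of its list. It overlapped an RD region (220316622 to 220319012) of fold 19.7 on 213 tags (185 to 244), in the top 6.17%. In RD the highest fold of the window lay at the other end of the cluster (220268582 to 220270776), at 23.7 on 256 tags (226 to 289), in the top 3.04% by fold. It overlapped an RH18 region (220268572 to 220270813) of fold 90.1 on 253 tags (223 to 286), in the top 0.560%. Both sites held a MYF5 summit.

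All 8 MYF5 summits of the DES window lay inside RH18 regions, 3 of them inside RD regions as well, and 7 lay within 500 bp of an RD region. The MYF5 peak of highest fold (220304276 to 220304675, fold 16.3, 73 tags, 57.2 to 91.8) sat in an RH18 region with a fold of 10.2 and stood 67 bp off the nearest RD acetylation. The next by fold were at 220269792 to 220270040 (fold 14.3, 45 tags) and at 220310132 to 220310365 (fold 13.0, 41 tags), and both lay inside regions of both lines. The MYF5 peak of highest fold was thus not at the most acetylated site. All 18 RD regions overlapped RH18 regions, and 13 of the 19 RH18 regions overlapped RD regions. The widest RH18 region of the window (220281688 to 220285294, 3607 bp, fold 42.1, top 10.5% of its list) overlapped 3 RD regions, with folds of 5.06 (top 87.4%), 8.61 (top 43.9%) and 5.19 (top 86.1%). The RH18 regions without an RD overlap were low, the highest being at 220320382 to 220320689 (fold 12.3, 33 tags). As a joined domain the cluster spanned 72.0 kb in RH18, ranked 31 of 18842, and 56.7 kb in RD, ranked 118 of 16671. Past 220327350 the RH18 domain held only a window region of fold 7.81 and a region just outside the window (220340221 to 220340568, fold 10.1).

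**Figure D2:**
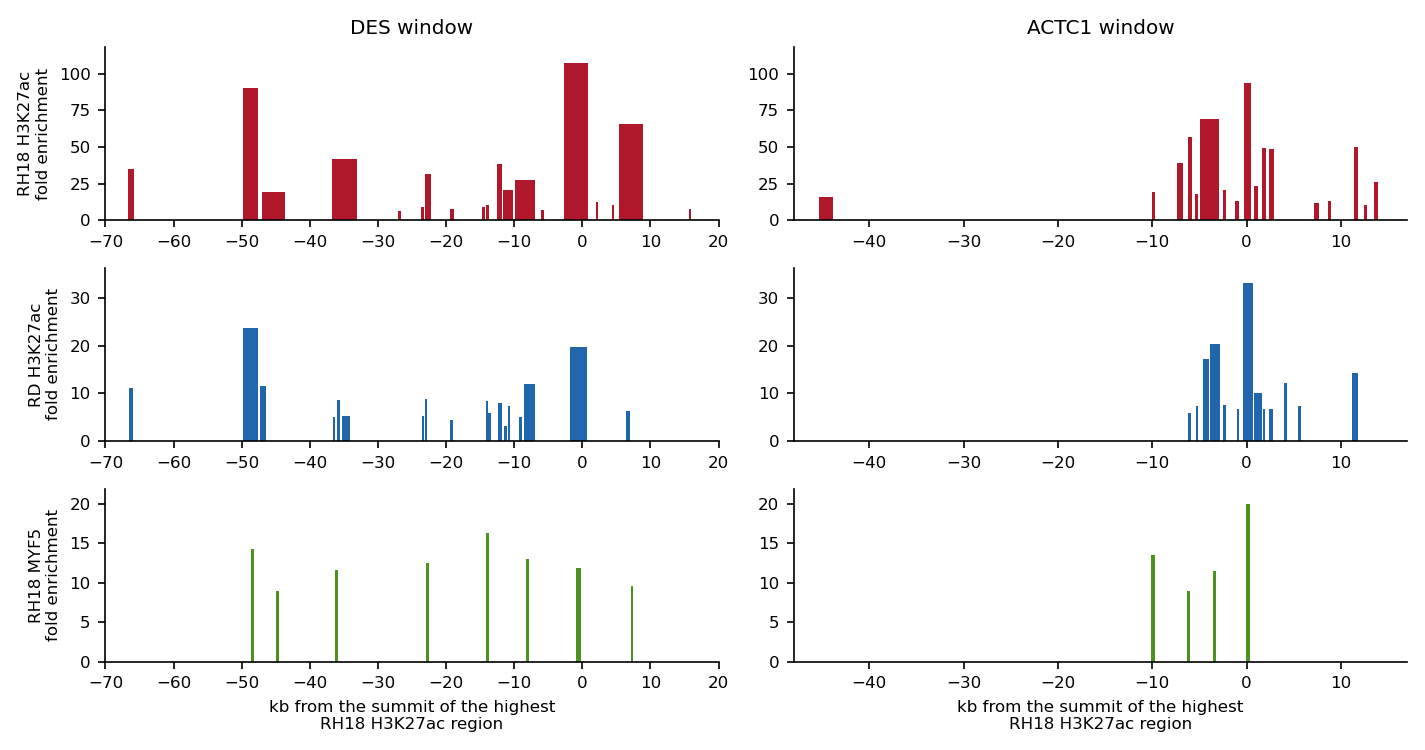
Listed peaks of the DES (left) and ACTC1 (right) windows, as bars from start to end of each peak (narrow peaks widened to stay visible) with fold enrichment as height, against kb from the summit of the highest RH18 H3K27ac region. Rows show RH18 H3K27ac (red), RD H3K27ac (blue) and RH18 MYF5 (green), each with its own fold axis. The clusters line up between the lines, and all 8 MYF5 summits at DES stand under RH18 regions.

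Muscle creatine kinase (CKM) rebuilds ATP from phosphocreatine in working fibres. Its window (chromosome 19, 45760000 to 45880000) had 4 RH18 regions and 1 RD region, all in the stretch from 45872966 to 45880259 at the end of the window. The strongest in RH18 (45879803 to 45880259, fold 29.0, 211 tags, 183 to 241) crossed the end of the window and had no RD overlap. The RD region (45874091 to 45874568, fold 6.12, 75 tags, 59.0 to 94.0), in the top 74.1% of its list, overlapped an RH18 region of fold 14.6 on 94 tags, in the top 47.7%. The MYF5 peak of the window (45851822 to 45851993, fold 10.2, 34 tags, 23.5 to 47.5) was apart from them, 21027 bp from the nearest RH18 region and 22152 bp from the nearest RD region. Local background was 3.35 to 5.36 times the lowest of its list under the 4 RH18 regions, and 3.93 times under the RD region. Its part in these folds was not tested. With every window narrowed by 10 kb, the whole acetylated stretch falls outside. Just past the end, the next RH18 region (45880406 to 45881124) had a fold of 13.1 on 109 tags.

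The ryanodine receptor RYR1 releases calcium from the sarcoplasmic reticulum at each contraction. Its window (chromosome 19, 38870000 to 39130000) held 7 RH18 and 8 RD regions in 260 kb, and all 8 RD regions and 5 of the RH18 regions overlapped the other line. In RH18 the highest (39108878 to 39109635) had a fold of 37.2 on 172 tags (147 to 200), in the top 13.8% of its list, and the RD region under it a fold of 6.80 on 146 tags, in the top 64.5%. The highest RD region was elsewhere (38925623 to 38926293), with a fold of 20.3 on 235 tags (206 to 267), in the top 5.52% of its list. The RH18 region around it (38924434 to 38926354, fold 29.4, 141 tags) stood in the top 20.5% of its own list and spanned 2 RD regions. The order of these sites within the window therefore differed between the lists. The higher of the 2 RH18 regions without an RD overlap was at 38893840 to 38894534 (fold 9.86, 63 tags).

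At RYR1 the MYF5 peak of higher fold (38925470 to 38925697, fold 12.4, 63 tags, 48.4 to 80.6) lay in the 1921 bp RH18 region around the RD maximum, 22 bp from an RD region. The other (38878413 to 38878645, fold 11.2, 33 tags, 22.7 to 46.3) lay inside regions of both lines. From the summit of the highest RH18 region of the window, the nearest MYF5 peak was 47352 bp away.

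Caveolin-3 (CAV3) coats the caveolae of the muscle cell membrane. Its window (chromosome 3, 8720000 to 8840000) differed most in number between the lines, with 10 regions in RH18 and 2 in RD. The highest region was at the same place in both, at 8783326 to 8783965 in RH18 (fold 49.2, 136 tags, 114 to 161) and at 8783487 to 8784023 in RD (fold 28.5, 170 tags, 145 to 198). The summits lay 1 bp apart, and the region ranked in the top 7.17% by fold in RH18 and the top 1.26% in RD. The other RD region (8753729 to 8754908, fold 13.1, 75 tags, top 18.7% of its list) overlapped 2 RH18 regions, with folds of 42.1 (top 10.5%) and 30.6 (top 19.2%). No RD region was listed where the other 7 RH18 regions lay.

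One of the CAV3 MYF5 peaks (8754303 to 8754547, fold 14.8, 44 tags, 31.97 to 59.1) lay inside regions of both lines. The other (8799901 to 8800132, fold 14.1, 42 tags, 30.3 to 56.8) had its summit 3 bp outside the highest RH18 region that had no RD overlap (8799280 to 8800011, fold 27.3, 75 tags), in a gap before a further RH18 region of fold 25.9. The nearest RD region was 15991 bp from this summit. At the most acetylated CAV3 site, shared by both lines, the nearest MYF5 peak was 16237 bp from the RH18 summit and 16236 bp from the RD summit.

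**Figure D3:**
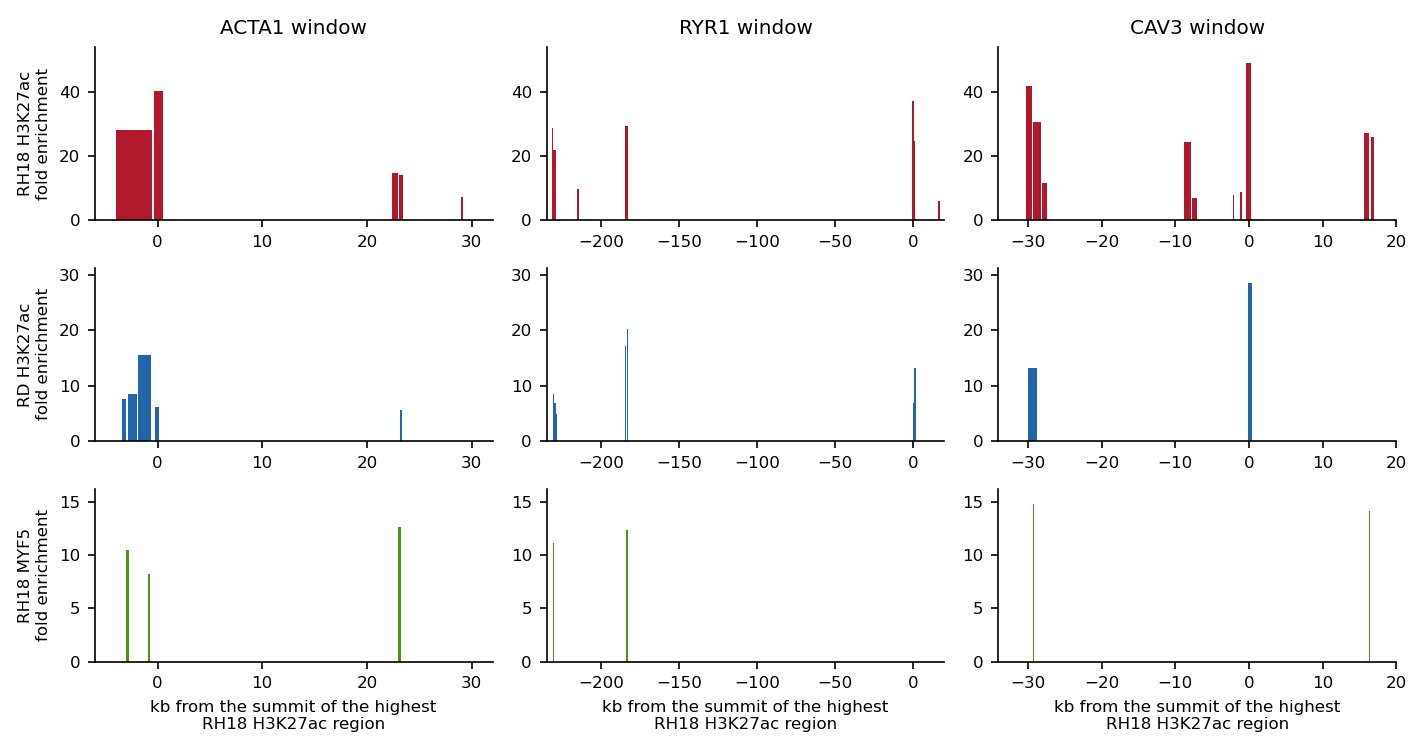
Listed peaks of the ACTA1, RYR1 and CAV3 windows, as bars from start to end of each peak (narrow peaks widened to stay visible) with fold enrichment as height, against kb from the summit of the highest RH18 H3K27ac region. Rows show RH18 H3K27ac (red), RD H3K27ac (blue) and RH18 MYF5 (green), each with its own fold axis. CAV3 shows 10 regions in RH18 and 2 in RD, with the highest of each line at the same place.

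Set side by side, the RD regions of these windows nearly all touched an RH18 region, by at least 1 bp, and the reverse held for a smaller share. Of the 66 RH18 regions, 37 overlapped an RD region (56.1%, 43.3 to 68.3%), where 45.1% of the whole RH18 list did. Of the 53 RD regions, 48 overlapped an RH18 region (90.6%, 79.3 to 96.9%), where 60.0% of the whole RD list did. This depends on the rule: an overlap of 50% of both regions was met by 20 of the 66 RH18 regions (30.3%, whole list 25.6%) and 20 of the 53 RD regions (37.7%, whole list 27.5%). The 5 RD regions without an RH18 overlap were 3 at TTN and 2 at ACTC1. Of the bases covered in RH18, 45.4% were also covered in RD, beside 38.8% over the whole lists, and of those covered in RD, 89.4% were also covered in RH18, beside 59.6%. The members were few and grouped in clusters, so these intervals treat neighbouring regions as separate when they may not be. The RH18 regions that overlapped RD were higher, with a median fold of 29.4 on 117 tags, than those that did not, with 11.6 on 47 tags, and over the whole list the medians were 22.3 on 95 tags and 10.5 on 42 tags.

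Where regions overlapped, their summits lay close. The median distance between an RH18 summit and the closest summit of an overlapping RD region was 47 bp for the 37 RH18 regions of the windows, beside 43 bp for 20907 over the whole list. It was under 100 bp for 28 of the 37 (75.7%, whole list 74.2%), so this closeness was near the background. More than 1 RD region lay under 10 of the 37 (27.03%, whole list 22.7%). Across the 37 pairs, which come from the same libraries and partly share RD regions, the Spearman correlation was 0.49 for fold and 0.63 for tags, beside 0.29 and 0.50 over all pairs.

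By strength, the median of the windows was above that of the whole list in RH18 and slightly below it in RD, while the share in the top 10% was alike in both. The median fold was 20.7 for the 66 RH18 regions, beside 13.98 over the whole list, and the median tags were 76.5 beside 57. For the 53 RD regions the median fold was 7.59, beside 8.0 over the whole list, and the median tags were 82 beside 85. In the top 10% by fold stood 10 of the 66 RH18 regions (15.2%, whole list 10.0%) and 8 of the 53 RD regions (15.1%, whole list 10.0%). These came from DES, ACTC1 and CAV3 in RH18, and from DES, ACTC1, RYR1 and CAV3 in RD. Local background, recovered with the tags, was at least 4 times the lowest of the list under 2 of the 66 RH18 regions (3.03%, whole list 10.1%) and 17 of the 53 RD regions (32.1%, whole list 31.9%), and its part in the folds was not tested.

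**Figure D4:**
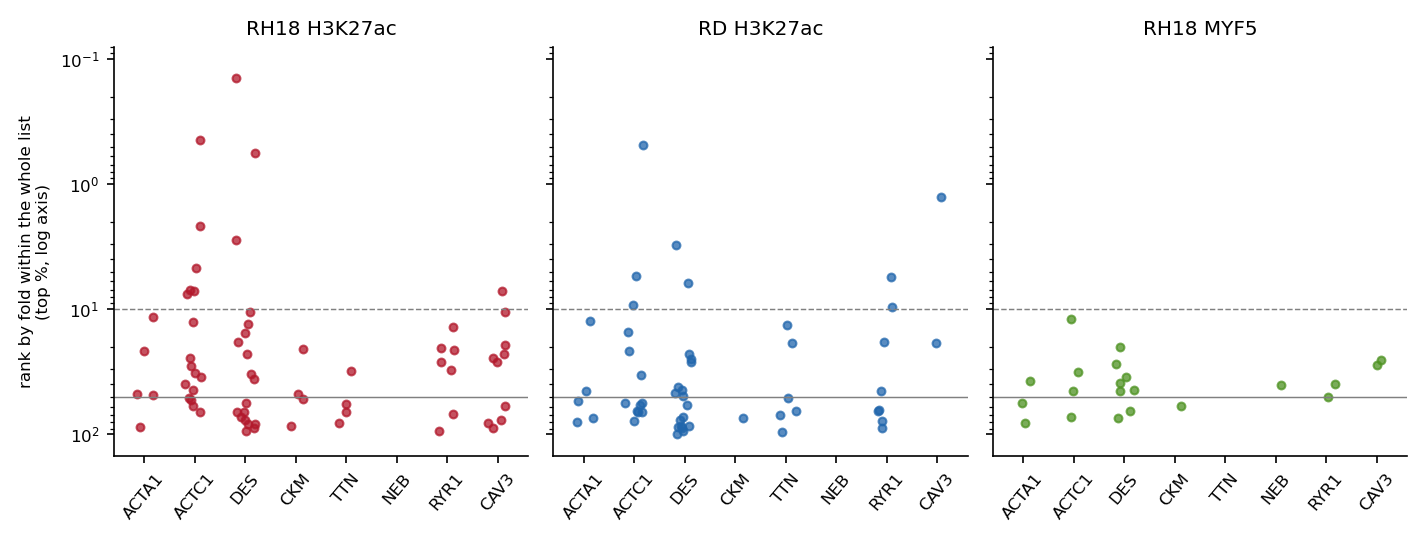
Rank by fold within the whole list, in percent from the top on a reversed log axis, of each peak of the 8 windows in RH18 H3K27ac (left), RD H3K27ac (middle) and RH18 MYF5 (right); sideways scatter is for visibility only. The dashed line marks the top 10% and the full line the middle of the list. DES and ACTC1 reach above the top 1% in RH18, ACTC1 does in RD, and no MYF5 peak reaches the top 10%.

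The MYF5 peaks inside these windows were of middling height. Their folds ran from 8.26 to 19.96 with a median of 12.2, beside 11.2 over the whole MYF5 list, and their tags from 24 to 73 with a median of 40, beside 42. None of the 21 was in the top 10% of the list by fold, where 9.99% of all MYF5 peaks stood, and the highest, at ACTC1, was at the top 12.1%.

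In RH18, the line in which MYF5 was mapped, its summits at these genes mostly lay in acetylated regions. Inside an RH18 region lay 17 of the 21 (81.0%, 58.1 to 94.6%), where 55.2% of all MYF5 summits did, and without the DES window it was 69.2%. Inside an RD region lay 8 of the 21 (38.1%, 18.1 to 61.6%), where 39.9% of all summits did. By any base, a looser rule, 14 of the 21 peaks (66.7%) overlapped an RD region. No whole-list share by that rule is given here, so 66.7% is not to be set against 39.9%. All 8 summits inside RD regions were inside RH18 regions too, where 33.5% of all summits lay in regions of both lines. RH18 regions alone held 9 of the 21 (42.9%, 21.8 to 66.0%), beside 21.7% over the whole list, and RD regions alone held 0, beside 6.38%, a share that is about 1 of 21. The 9 came from DES with 5, ACTA1 with 2, and ACTC1 and RYR1 with 1 each. Apart from 1 at DES, 1640 bp from RD acetylation, they stood 1 to 303 bp from an RD region.

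Counting summits within 500 bp of a region brought the lines closer, to 19 of 21 in RH18 (90.5%, whole list 72.1%) and 16 of 21 in RD (76.2%, whole list 62.9%). In RD, 4 of the 21 sites sat in a gap with regions ending within 500 bp on both sides (19.05%, whole list 10.6%), and in RH18 1 did (4.76%, whole list 4.81%). Regions of neither line held 4 of the 21 summits (19.05%, 5.45 to 41.9%), where 38.4% of all summits lay. These were the single peaks of CKM and NEB, and 1 each at ACTC1 and CAV3 that stood 7 and 3 bp from RH18 acetylation.

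**Figure D5:**
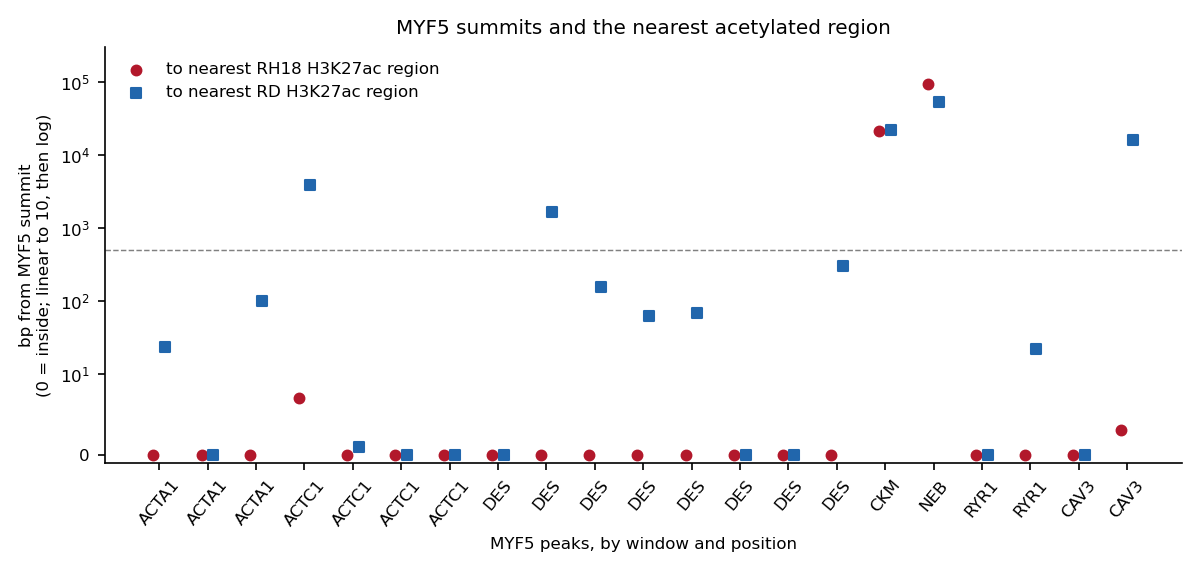
Distance in bp from each of the 21 MYF5 summits to the nearest H3K27ac region of RH18 (red circles) and RD (blue squares), by window; 0 means inside, the axis is linear to 10 and logarithmic above, and the dashed line marks 500 bp. The CKM and NEB peaks stand over 20 kb from acetylation in both lines, and 17 RH18 circles lie at 0.

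Seen from the regions, the 16 RH18 regions with a MYF5 summit were all among those that overlapped RD, which holds for summits and not for any overlap with a MYF5 peak. A MYF5 summit lay in 16 of the 66 RH18 regions (24.2%, 14.5 to 36.4%), where 12.0% of the whole list held one, and in 8 of the 53 RD regions (15.1%, 6.75 to 27.6%), where 9.71% did. By any overlap with a MYF5 peak it was 19 of the 66 RH18 regions (28.8%, whole list 14.4%) and 16 of the 53 RD regions (30.2%, whole list 15.3%). Among the RH18 regions of the windows, a summit lay in 16 of the 37 that overlapped RD (43.2%, 27.1 to 60.5%; whole list 21.3%) and 0 of the 29 that did not (upper bound 11.9%; whole list 4.31%, so that 0 is near the background). By any overlap, 3 of these 29 were touched by a MYF5 peak (10.3%, whole list 6.11%), 1 each at ACTA1, ACTC1 and CAV3. Among the RD regions a summit lay in 8 of the 48 that overlapped RH18 (16.7%, 7.48 to 30.2%; whole list 14.5%) and 0 of the 5 that did not (whole list 2.53%), again near the background. Regions that overlapped were also wider (median 759 against 382 bp in RH18), and the part of width in this was not tested.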

How the data were processed

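Peak lists of 3 chromatin immunoprecipitation libraries were used, 1 per library. The submitters' processing notes name BWA 0.7.10, MACS2 2.1.0 and hg19, and give no role, control or threshold for them. The authors deposited for every peak its summit position and a fold enrichment, the ratio to local background. They also deposited significance as a −log10 p-value and as a −log10 q-value. The deposited score repeats the −log10 p-value on a rescaled whole-number scale and was not used. Total reads are not given in the sources used here.

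Tags and background at each summit were recovered from the deposited fold and −log10 p-value with the MACS2 formulas (fold as pileup plus 1 over background plus 1; Poisson tail). A tag was worth 0.832 pileup units in RH18 H3K27ac, 0.273 in RD H3K27ac and 0.658 in MYF5, and 100% of peaks came out whole within 0.1 tag. Several solutions were possible for 22.5%, 55.0% and 47.5% of peaks, in that order, and the nearest whole tag was taken; backgrounds under the lowest value shared by 0.5% of peaks were not allowed. Tested on simulated data, 5000 peaks of each list returned their tags in 100% of cases. Those peaks were rebuilt from the tags and backgrounds already recovered. This checks the code, not the formulas or the choice among several solutions. Since a tag has unequal worth, the size of a fold was not compared between lines, only its rank within a list.

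H3K27ac regions overlapped from 1 bp, and a MYF5 peak was placed by its summit. The members, gene list and settings were chosen with earlier results of these data known. In each window the region of highest fold of each list, the highest without an overlap, and the MYF5 peaks (the 3 of highest fold where more than 5) are named, with their partners. The planned list of other sarcomere genes needs hg19 annotation and was not used. Alternatives changed the window width, q-value, overlap rule and windows included. Scripts ran in Python 3.11.15 with pandas 2.3.3, numpy 2.4.6 and scipy 1.17.1; figures were drawn with matplotlib 3.10.9.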

Additional observations from a re-analysis of the deposited data

How the results depend on the processing

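Of 120 alternatives, 108 stayed within 1.5 times of a count or within the interval of a share, and 12 moved. Many of the alternatives left out 1 window, which could hardly move a value where that window held few peaks. Leaving out NEB, with 0 H3K27ac regions, could not change the 66 RH18 or 53 RD regions. The 108 are therefore no measure of how stable the results are. Windows widened by 50 kb held 121 RH18 regions, 108 RD regions and 33 MYF5 peaks. A −log10 q of at least 10 left 64 of the 66 RH18 regions and 35 of the 53 RD regions, and 42.2% of RH18 regions then overlapped RD. The whole-list share at that q-value is not given here, and the 45.1% given above is for the uncut lists. Without the DES window, 35 RD regions and 13 MYF5 peaks remained. An overlap of 50% of both regions was met by 30.3% of RH18 and 37.7% of RD regions. Any overlap with the MYF5 peak gave 66.7% of MYF5 peaks in RD regions, with no whole-list share by that rule, and 30.2% of RD regions with MYF5. A distance of 500 bp gave 76.2% of summits in RD. The cause of these changes was not tested beyond what each setting removes. No paired analysis was possible because each group has 1 library. Read totals are unknown and the lists stop at unequal p-values, so a region missing from a list may be weak, not absent. Recovered tags had more than 1 whole-number solution for 2 RH18, 1 RD and 3 MYF5 peaks of the windows. The MYF5 peaks were that of NEB, the one of 24 tags at ACTA1 and the one of 26 tags at ACTC1.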
